A study of Mus musculus with 18 samples.

Results

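The genes of cholesterol and fatty acid synthesis were examined in kidney RNA of 6-wk-old mice whose dams had been fed a low protein (LP) or a normal protein (NP) diet. The members were given as a list of 31 gene names: 18 enzymes of cholesterol synthesis, 4 regulators and carriers of sterols, and 9 genes of fatty acid synthesis and its supply. All 31 were found among the 78239 genes listed in each count file, and all 31 had at least 10 reads in every library, with counts between 54 and 76722. Of the 18 libraries, 10 came from males (5 LP and 5 NP) and 8 from females (5 LP and 3 NP). All mice were wild-type outbred CD-1 animals. LP dams received 8% protein and NP dams 18% protein through gestation and lactation, and all offspring were given the 18% diet from weaning. Every mouse, LP and NP alike, had received cationic ferritin for imaging and was perfused with saline. Kidneys of males were collected 90 min and those of females 24 h after the last ferritin injection, so that sex and this interval cannot be told apart. The RNA came from a piece of the left kidney, and the litter of each mouse was not given in the sources used here.

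Cells make cholesterol from acetyl-CoA through the mevalonate pathway and a long series of sterol intermediates, and they make fatty acids from the same acetyl-CoA through malonyl-CoA. The transcription factor SREBP-2, encoded by *Srebf2*, drives the sterol genes when membranes run low in sterol, and SREBP-1, encoded by *Srebf1*, drives mainly the fatty acid genes. INSIG proteins, with *Insig1* among them, hold the SREBPs in the endoplasmic reticulum when sterol is plentiful. The kidney tubule burns fatty acids for most of its energy and also makes sterols and lipids for its own membranes.

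The sequence before the start of 4 genes is shown because they stand on both sides of the difference between the sexes described later: *Hmgcs1*, *Cyp51*, and *Hsd17b7* were higher in males and *Elovl6* was higher in females. Sequences are from RefSeq (table build GRCm38.p6), were placed on GRCm39 by exact match, are written 5′ to 3′ on the strand of the gene, and leave out annotated untranslated and coding bases. Positions are chr13:120151637-120151886 for *Hmgcs1* (plus strand), chr5:4154752-4154947 for *Cyp51* (minus strand), chr1:169796814-169797024 for *Hsd17b7* (minus strand), and chr3:129325785-129326003 for *Elovl6* (plus strand). Capitals mark, on either strand, the sterol regulatory letters TCACNCCAC, the CCAAT box bound by NF-Y, the GC box GGGCGG bound by Sp1, and the E box CACGTG.
Hmgcs1: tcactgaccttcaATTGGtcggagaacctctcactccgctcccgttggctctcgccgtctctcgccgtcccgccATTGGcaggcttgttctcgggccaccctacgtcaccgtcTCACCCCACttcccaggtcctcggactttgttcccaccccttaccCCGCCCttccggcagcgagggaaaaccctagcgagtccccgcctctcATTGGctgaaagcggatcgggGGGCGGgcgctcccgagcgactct
Cyp51: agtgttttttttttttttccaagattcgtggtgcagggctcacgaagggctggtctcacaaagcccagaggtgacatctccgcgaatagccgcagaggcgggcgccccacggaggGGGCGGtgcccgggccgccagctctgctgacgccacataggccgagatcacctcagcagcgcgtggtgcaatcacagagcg
Hsd17b7: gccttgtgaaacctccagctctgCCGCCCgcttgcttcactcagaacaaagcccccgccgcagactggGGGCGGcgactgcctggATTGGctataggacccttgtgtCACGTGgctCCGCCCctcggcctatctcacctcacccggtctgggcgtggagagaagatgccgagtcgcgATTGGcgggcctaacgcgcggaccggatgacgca
Elovl6: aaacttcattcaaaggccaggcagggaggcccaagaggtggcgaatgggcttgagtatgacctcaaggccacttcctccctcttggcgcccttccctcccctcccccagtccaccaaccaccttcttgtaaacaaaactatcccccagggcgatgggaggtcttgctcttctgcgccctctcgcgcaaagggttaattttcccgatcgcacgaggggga
The stretch of *Hmgcs1* held the sterol regulatory letters once, CCAAT 3 times, and GGGCGG 2 times, that of *Cyp51* held GGGCGG once, that of *Hsd17b7* held CCAAT 2 times, GGGCGG 3 times, and CACGTG once, and that of *Elovl6* held none of these letters. CCAAT in the window of *Cyp51* lies in the bases left out here. Of the 31 genes, 25 had a RefSeq window from 250 bases before to 50 bases after a start. CCAAT was present in a window of 21 of the 25, or 84%, against 41.1% of the 27025 genes with a window, and GGGCGG in 19 of the 25, or 76%, against 38.2%. CACGTG was in 4 of the 25 (16%, against 8.09% of genes), TCACGTGA, which contains it, in 0 of the 25 (against 1.12%), TCACNCCAC in *Hmgcs1* alone (against 1.44%), TCACCCCAC, a form of it, also in *Hmgcs1* alone (against 0.614%), and the shorter TCACCCCA in *Hmgcs1* and *Srebf2* (against 1.77%). These matches describe letters within the windows and were not tested.

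Between 14050486 and 23562411 reads were counted on genes per library, and levels are given as CPM, the count scaled to the library total after TMM normalization. The labelled tissue was borne out by nephron markers, since the summed level of 5 proximal tubule markers was between 6042 and 13100 CPM in every library. Adipocyte RNA was measured in some pieces: the summed level of 8 adipocyte markers was between 39.1 and 263 CPM in LP male 4, NP males 2 and 3, LP female 5, and NP females 2 and 3, and between 4.31 and 12.4 CPM in the other 12 libraries. In those 12, *Plin1* and *Adipoq*, which define fat cells, had at most 11 and 8 counts. Of adrenal cortex, which lies next to the kidney and makes steroids from cholesterol, *Cyp11b1* and *Cyp11b2* had 0 counts in all 18 libraries. The 8 adrenal markers summed to between 1.28 and 4.71 CPM, with 3 to 6 of them at 0 counts in each library. LP female 1, LP female 2, and NP female 3 stood apart from the other 15 libraries: 7 interferon-response genes summed to between 82.5 and 133 CPM in them and to between 623 and 2852 CPM in the others, and 6 glucocorticoid-response genes to between 219 and 467 CPM against 524 to 1344 CPM. Where a result is said to rest on either set of libraries, the values without them are given.

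Per exon length (TPM made from these counts, over 18 libraries), the 31 genes spanned a wide range of levels. In males the highest was *Me1*, the cytosolic malic enzyme that yields NADPH, at 480 ± 53.9 TPM (SD, n = 10), followed by *Hmgcs1*, the cytosolic HMG-CoA synthase, at 376 ± 26.5 TPM, and *Cyp51*, the lanosterol demethylase, at 345 ± 54.98 TPM. In females it was *Scd1*, the main delta-9 desaturase, at 735 ± 677 TPM (SD, n = 8), followed by *Hmgcs1* at 259 ± 72.6 TPM, *Cyp51* at 213 ± 52.4 TPM, and *Me1* at 182 ± 30.2 TPM. *Scd1* was at 76.9 ± 47.4 TPM in males, and its mean in females was raised by LP female 4, at 2306 TPM. In females the means of *Hmgcs1* and *Cyp51* differed by less than either SD, and in males by less than the SD of *Cyp51* alone. The lowest levels over all 18 libraries were those of *Lss*, which closes the sterol ring, at 5.81 ± 1.15 TPM, *Acaca*, the acetyl-CoA carboxylase of lipid-making tissues, at 5.18 ± 1.82 TPM, and *Mvk*, the mevalonate kinase, at 4.57 ± 0.65 TPM. *Hmgcs1* and *Mvk*, which stood far apart in level, are steps of the same route.

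Males and females differed in cholesterol and fatty acid synthesis genes, and the called genes of each branch did not all go 1 way. Of the 18 cholesterol synthesis enzymes 8 were higher in males and 1, *Fdft1*, was higher in females, whereas in the fatty acid branch 4 of 9 were higher in females and 1, *Me1*, was higher in males. Of the 4 regulators and carriers, 2 were higher in females and 0 in males. Of the 4 fatty acid genes higher in females, *Scd1* and *Elovl6* kept their call in each of 3 fits without doubted libraries, *Acacb* lost it in 1, and *Scd2* lost it in all 3. The most marked differences were those of *Scd1* and *Elovl6*, 8.22 and 5.79 times as high in females, and of *Idi1* and *Me1*, 3.64 and 2.81 times as high in males. Over the 31 genes, 16 had an adjusted p under 0.05 in edgeR's quasi-likelihood test of 10 males against 8 females, 9 higher in males and 7 higher in females. Of all 12665 genes tested, 38.7% passed the same threshold, with 18.9% higher in males and 19.8% higher in females, so a call in this comparison was common. The median log2 fold change of males over females was 0.34 over the 18 cholesterol enzymes, −0.37 over the 4 regulators and carriers, −0.12 over the 9 fatty acid genes, and −0.05 over all genes tested. In whole tissue, fewer cells of a type and less RNA per cell cannot be told apart. The 3 podocyte markers were all lower in males (summed level 126 to 207 CPM against 213 to 416 CPM). So were *Slc12a3* of the distal convoluted tubule (log2 fold change −0.86), *Slc12a1* of the thick ascending limb (−0.63), and *Scnn1g* of the collecting duct (−0.59). The other markers of 2 of these segments were not called: *Umod* of the thick ascending limb (−0.55), and *Aqp2* and *Aqp3* of the collecting duct (between −0.19 and 0.08). Of the 8 adipocyte markers only *Fabp4* had enough counts to be tested, and it was lower in males (−1.60). Within each diet *Fabp4* was called in NP mice (−2.30) and not in LP mice (−0.90, adjusted p = 0.358 in edgeR). The summed level of the 3 collecting duct markers overlapped, at 286 to 848 CPM in males and 366 to 813 CPM in females. Of 5 proximal tubule markers, *Slc22a6* (2.14) and *Slc34a1* (0.42) were higher in males, and *Lrp2* (−0.17), *Slc5a2* (−0.32), and *Slc5a12* (−0.48) were not called. The part of these markers in the results was not tested.

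**Figure D1:**
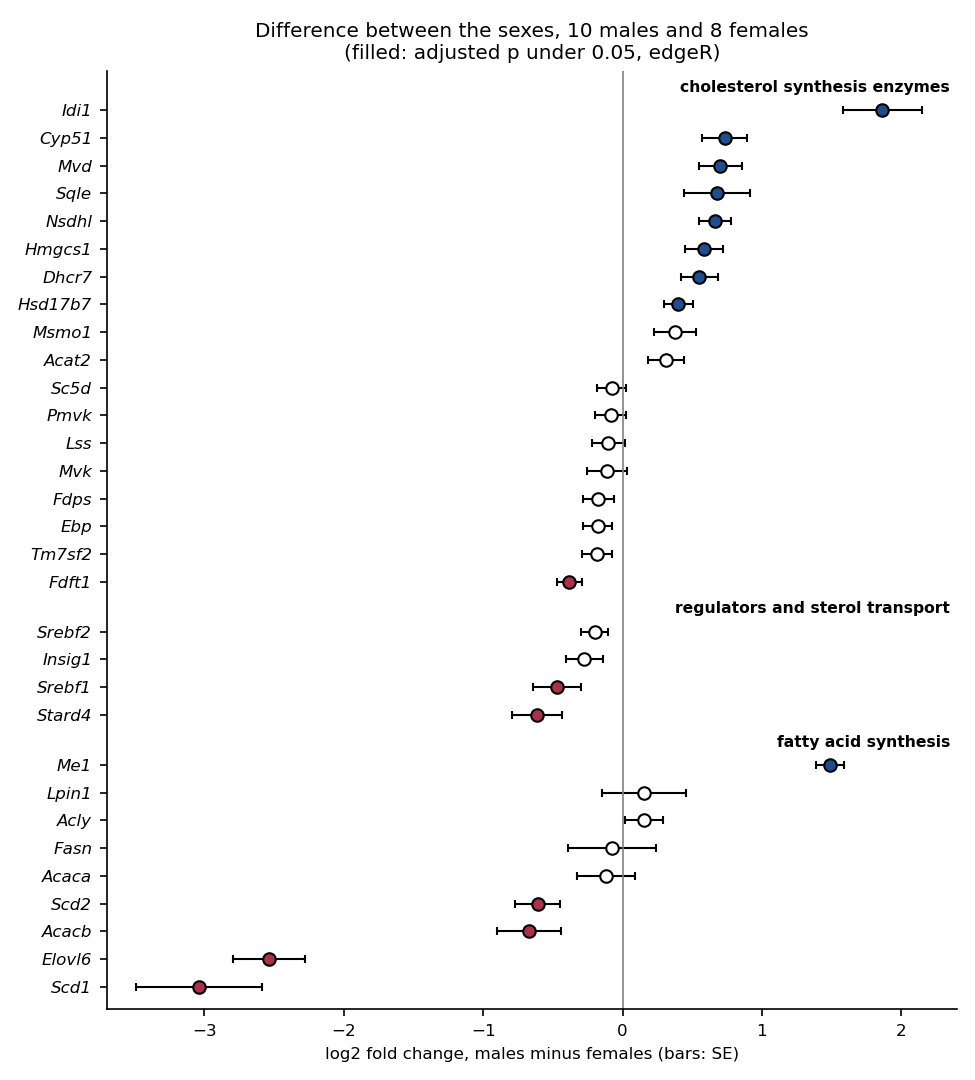
Log2 fold change of males over females for each of the 31 genes, grouped by role and ordered within each role, with bars of 1 SE; filled points have an adjusted p under 0.05 in edgeR (blue, higher in males; red, higher in females). Filled points lie mostly to the right among the 18 cholesterol enzymes, from *Idi1* at 1.86 to *Hsd17b7* at 0.40, and mostly to the left among the fatty acid genes, down to *Scd1* at −3.04.

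Early steps of the pathway were represented by *Hmgcs1*, which condenses acetyl-CoA and acetoacetyl-CoA (ENSMUSG00000093930.3, GRCm39 chr13:120151915-120170470). *Hmgcs1* ran from 476 to 661 CPM in males (median 585) and from 213 to 467 CPM in females (median 413), so that every male lay above every female. Males exceeded females by 0.58 on the log2 scale (SE 0.13, adjusted p = 0.00248 in edgeR), and an exact two-sided permutation of the sex labels gave p = 2.285e-05, the smallest that 43758 relabelings allow. No overlap between the sexes was seen for 8.4% of all genes tested. *Mvd*, which turns mevalonate diphosphate into isopentenyl diphosphate, ran from 51.5 to 96.9 CPM in males (median 64.4) and from 30.9 to 65.2 CPM in females (median 43.7), with only NP female 3 within the range of the males (log2 fold change 0.70, SE 0.15, adjusted p = 0.00175 in edgeR).

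*Idi1*, the isomerase that supplies dimethylallyl diphosphate, had the widest difference among the cholesterol enzymes (ENSMUSG00000058258.16, GRCm39 chr13:8935537-8942487). LP males had 32.8, 20.8, 46.0, 36.9, and 46.4 CPM, and NP males had 48.2, 13.7, 44.0, 31.8, and 42.3 CPM. LP females had 14.5, 9.73, 12.3, 10.99, and 12.02 CPM, and NP females had 5.26, 15.7, and 3.83 CPM. NP male 2 was the only male within the range of the females. On the log2 scale males were higher by 1.86 (SE 0.28, adjusted p = 5.86e-05 in edgeR).

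Further along the route, *Sqle*, the squalene epoxidase, overlapped widely, at 43.8 to 92.4 CPM in males (median 66.1) and 18.4 to 79.4 CPM in females (median 41.6). Its log2 fold change of 0.68 (SE 0.24, adjusted p = 0.0324 in edgeR) rested on several libraries: it was called in 10 of the 18 fits that leave out 1 library, and without the 3 libraries that stand apart it was 0.33 (adjusted p = 0.189). *Fdft1*, the squalene synthase that acts just before it, went the other way, at 20.8 to 35.2 CPM in males (median 27.2) and 29.7 to 40.4 CPM in females (median 34.2), with 8 of 10 males below every female (log2 fold change −0.38, SE 0.09, adjusted p = 0.00358 in edgeR). Of the exon bases of *Fdft1*, 24.8% lie on those of other genes, *Ctsb* on the opposite strand among them, and reads that fall on 2 genes are counted for neither. *Fdps*, the farnesyl diphosphate synthase, and *Lss* had log2 fold changes of −0.17 (SE 0.11) and −0.10 (SE 0.12) and were not called.

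After the sterol ring is closed, *Cyp51* removes a methyl group from lanosterol, *Nsdhl* and *Hsd17b7* act together in removing others, and *Dhcr7* carries out the last reduction to cholesterol. *Cyp51* ran from 450 to 763 CPM in males (median 590) and from 158 to 467 CPM in females (median 371), with 9 of 10 males above every female (log2 fold change 0.73, SE 0.16, adjusted p = 0.00163 in edgeR). *Nsdhl*, on the X chromosome, ran from 92.7 to 138 CPM in males (median 110) and from 55.9 to 101 CPM in females (median 69.6), and 8 of 10 males lay above every female (log2 fold change 0.67, SE 0.11, adjusted p = 0.000185 in edgeR). *Hsd17b7* ran from 39.9 to 57.8 CPM in males (median 45.2) and from 26.5 to 43.1 CPM in females (median 38.1), a smaller difference (log2 fold change 0.40, SE 0.11, adjusted p = 0.00614 in edgeR). *Dhcr7* ran from 20.1 to 36.1 CPM in males (median 29.8) and from 15.4 to 29.0 CPM in females (median 19.6), with 5 of 10 males above every female (log2 fold change 0.55, SE 0.13, adjusted p = 0.00333 in edgeR). Smaller differences were not called: *Msmo1*, which acts with *Nsdhl* and *Hsd17b7*, and *Acat2*, which makes acetoacetyl-CoA at the start of the route, had log2 fold changes of 0.38 (SE 0.15, adjusted p = 0.0591 in edgeR) and 0.31 (SE 0.13, adjusted p = 0.0603 in edgeR). The sterol isomerase *Ebp*, the reductase *Tm7sf2*, the desaturase *Sc5d*, and the kinases *Mvk* and *Pmvk* were not called, with log2 fold changes between −0.18 and −0.08. Of the exon bases of *Cyp51*, 28.3% are shared with other genes, as are 20.5% of those of *Mvd*.

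Among the regulators, *Srebf1* ran from 28.4 to 72.0 CPM in males (median 43.3) and from 38.4 to 84.2 CPM in females (median 59.4), and its log2 fold change of −0.47 (SE 0.17, adjusted p = 0.0384 in edgeR) was called in 9 of the 18 fits that leave out 1 library. *Stard4*, a carrier that moves cholesterol between membranes, ran from 42.9 to 57.6 CPM in males (median 49.6) and from 31.96 to 136 CPM in females (median 74.7; log2 fold change −0.61, SE 0.18, adjusted p = 0.0129 in edgeR). Both differences rested on the libraries in doubt. The 3 females that stand apart had the highest *Srebf1* of the 18 libraries, at 72.6, 82.6, and 84.2 CPM, and the highest *Stard4*, at 136, 98.5, and 87.0 CPM. Without them the log2 fold changes were −0.19 for *Srebf1* (adjusted p = 0.389 in edgeR) and −0.30 for *Stard4* (adjusted p = 0.141), and without the libraries with adipocyte markers −0.19 (adjusted p = 0.617) and −0.16 (adjusted p = 0.626). *Srebf2* and *Insig1* had log2 fold changes of −0.20 (SE 0.10) and −0.27 (SE 0.13), and neither was called.

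In the fatty acid branch, *Me1* separated the sexes completely (ENSMUSG00000032418.16, GRCm39 chr9:86462646-86578104). LP males had 791, 797, 916, 828, and 793 CPM, and NP males had 1056, 700, 909, 907, and 837 CPM. LP females had 227, 280, 322, 374, and 326 CPM, and NP females had 304, 281, and 319 CPM. The lowest male stood well above the highest female, and within each sex the diets overlapped. The difference was 1.49 on the log2 scale (SE 0.10, adjusted p = 5.39e-09 in edgeR), with an exact permutation p of 2.285e-05. Of the exon bases of *Me1*, 35.5% lie on those of other genes, *Rwdd2a* on the opposite strand among them.

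*Elovl6*, which lengthens palmitate to stearate, separated the sexes in the opposite direction (ENSMUSG00000041220.11, GRCm39 chr3:129326004-129432144). LP males had 14.2, 14.7, 13.7, 32.4, and 22.3 CPM, and NP males had 9.64, 24.5, 17.4, 9.15, and 12.5 CPM. LP females had 47.2, 76.7, 139, 143, and 145 CPM, and NP females had 91.8, 103, and 66.5 CPM. No male reached the lowest female, and the 3 lowest females were those that stand apart. Males minus females gave −2.53 on the log2 scale (SE 0.26, adjusted p = 7.41e-07 in edgeR).

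*Scd1*, which puts a double bond into the stearate made by *Elovl6*, had the widest spread of the 31 genes (ENSMUSG00000037071.4, GRCm39 chr19:44382894-44399154). LP females had 246, 867, 1179, 4632, and 1708 CPM, and NP females had 896, 1083, and 922 CPM. LP males had 163, 92.9, 89.3, 273, and 133 CPM, and NP males had 85.9, 244, 327, 82.7, and 83.3 CPM. LP female 1 was the only female within the range of the males, and the 3 highest males were the 3 with adipocyte markers. Males minus females gave −3.04 on the log2 scale (SE 0.45, adjusted p = 4.86e-05 in edgeR). Without the libraries with adipocyte markers *Scd1* gave −3.63, without those that stand apart −3.34, and without both −4.01, and it was called in each.

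*Scd2*, the paralog of *Scd1*, ran from 35.9 to 58.1 CPM in males (median 46.5) and from 37.3 to 92.0 CPM in females (median 80.3; log2 fold change −0.61, SE 0.16, adjusted p = 0.00663 in edgeR). The females that stand apart had 90.4, 89.7, and 92.0 CPM, the highest of all libraries, and without them the log2 fold change was −0.39 (adjusted p = 0.0811 in edgeR). *Acacb*, the carboxylase whose malonyl-CoA restrains fatty acid oxidation, ran from 27.8 to 55.1 CPM in males (median 36.1) and from 24.1 to 95.6 CPM in females (median 65.8; log2 fold change −0.67, SE 0.23, adjusted p = 0.027 in edgeR). Here the 2 lowest females, at 24.1 and 27.8 CPM, were LP females 1 and 2, and without the 3 libraries that stand apart *Acacb* gave −0.96 (adjusted p = 0.000131 in edgeR). Without the adipocyte libraries it gave −0.82 and was not called (adjusted p = 0.0634 in edgeR), and without both sets −1.10 (adjusted p = 0.000149 in edgeR). The cytosolic carboxylase *Acaca*, the fatty acid synthase *Fasn*, the ATP citrate lyase *Acly*, and *Lpin1*, a phosphatidate phosphatase that also acts as a coactivator of oxidation genes, were not called (log2 fold changes of −0.12, −0.08, 0.15, and 0.15). The interval for *Fasn* was −0.69 to 0.54 (nominal 95%, made from the SE with a normal multiplier and so too narrow for few mice).

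**Figure D2:**
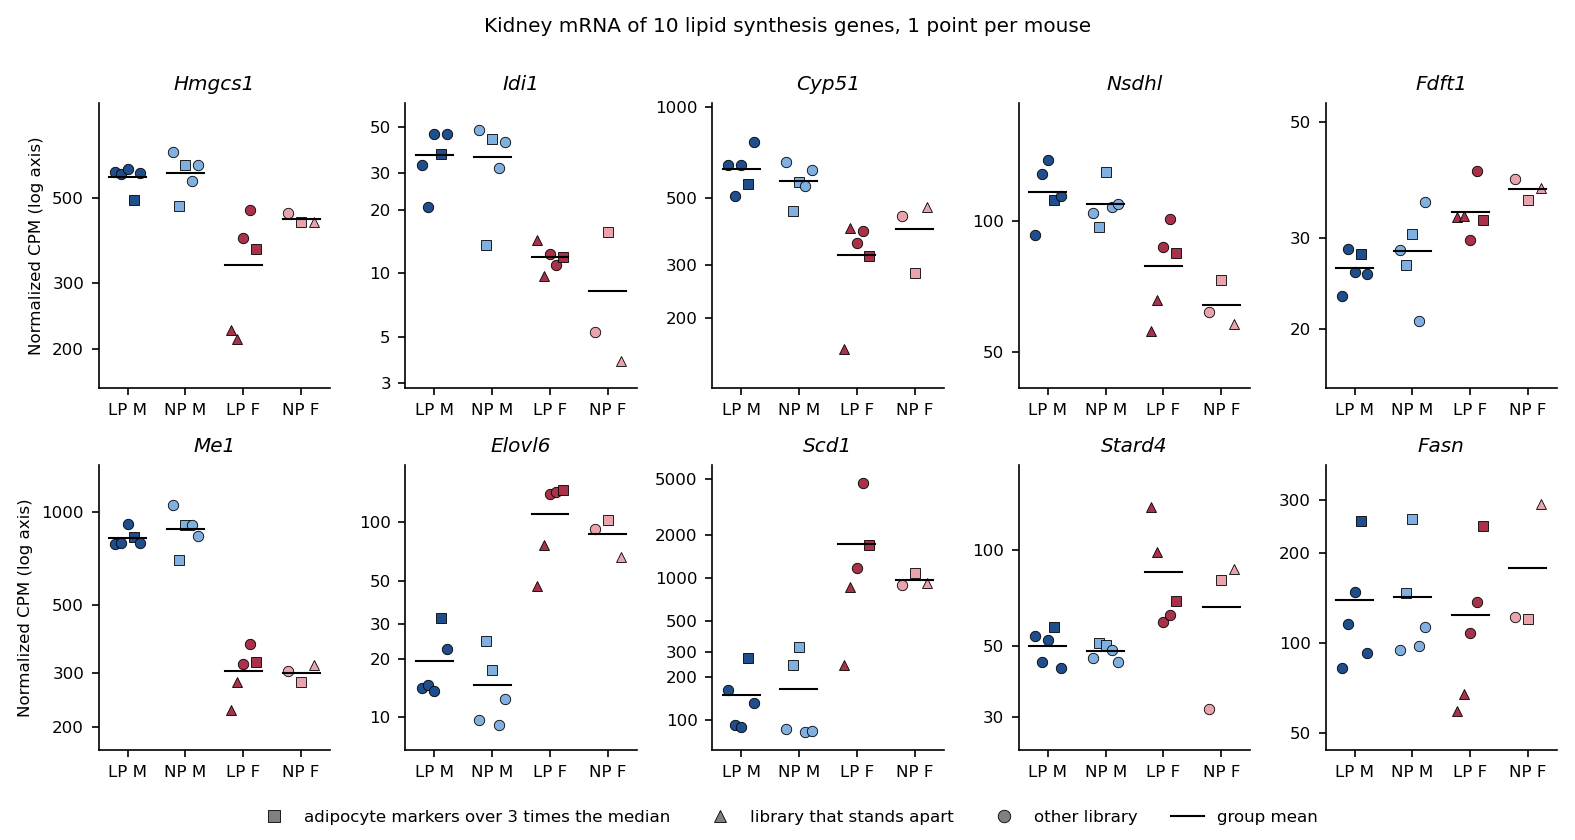
Normalized CPM of 10 of the genes (log axis) in each library, by group (LP M and NP M, males; LP F and NP F, females), with 1 point per mouse and a line at the group mean; squares mark libraries with adipocyte markers over 3 times the median, and triangles mark LP female 1, LP female 2, and NP female 3 (the last also has adipocyte markers). Males and females do not overlap in *Hmgcs1*, *Me1*, and *Elovl6*, and the diet groups overlap within each sex in all 10 panels.

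The difference between the sexes was also read within each diet from the same fit. In LP mice 12 of the 31 genes were called (18.5% of all genes tested), and in NP mice, with 3 females, 8 were called (24.4%). *Idi1*, *Nsdhl*, *Fdft1*, *Me1*, *Elovl6*, and *Scd1* were called in both. *Tm7sf2* was called in NP mice (log2 fold change −0.48, adjusted p = 0.0396 in edgeR) and not in LP mice (0.11, adjusted p = 0.649); the difference between these 2 values is the interaction term given with the diets, and it was not called. Without the 6 libraries with adipocyte markers, which leaves 1 NP female, 10 of the 31 genes were called, 8 of them among the 16, with *Acat2* and *Msmo1* added. Those no longer called by edgeR were *Hmgcs1* (log2 fold change 0.64, adjusted p = 0.0615), *Cyp51* (0.74, adjusted p = 0.0509), *Fdft1* (−0.43, adjusted p = 0.059), *Sqle* (0.76), and *Acacb* (−0.82), each with a fold change at least as large as in all libraries, and *Srebf1* (−0.19), *Stard4* (−0.16), and *Scd2* (−0.12), with smaller ones. Without the 3 libraries that stand apart 13 were called, 12 of them among the 16 and *Srebf2* besides (log2 fold change −0.33, adjusted p = 0.00846 in edgeR). The share of all genes called is not given here for either fit without doubted libraries, and it was 38.7% in all 18 libraries. These counts alone do not show if the 31 genes stand out. *Idi1*, *Nsdhl*, *Mvd*, *Dhcr7*, *Hsd17b7*, *Me1*, *Scd1*, and *Elovl6* were called in both of these fits without doubted libraries.

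*Acaca* and *Fasn*, and in males *Scd1*, were high in libraries with adipocyte markers. *Acaca* was between 27.0 and 49.1 CPM in the 6 libraries with adipocyte markers and between 17.5 and 25.7 CPM in the other 12, without overlap. *Fasn* was 254 CPM in LP male 4, 147 and 258 CPM in NP males 2 and 3, 246 CPM in LP female 5, and 120 and 290 CPM in NP females 2 and 3, and between 59.2 and 148 CPM elsewhere. In males, *Scd1* was between 244 and 327 CPM in the 3 libraries with these markers and between 82.7 and 163 CPM in the other 7. In females *Scd1* did not follow the markers, at 922 to 1708 CPM in the 3 libraries with them and 246 to 4632 CPM in the other 5. *Hmgcs1* did not rise with the markers: it was between 476 and 611 CPM in the 3 males with them and between 557 and 661 CPM in the others. The part of adipocyte RNA in these levels was not tested.

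**Figure D3:**
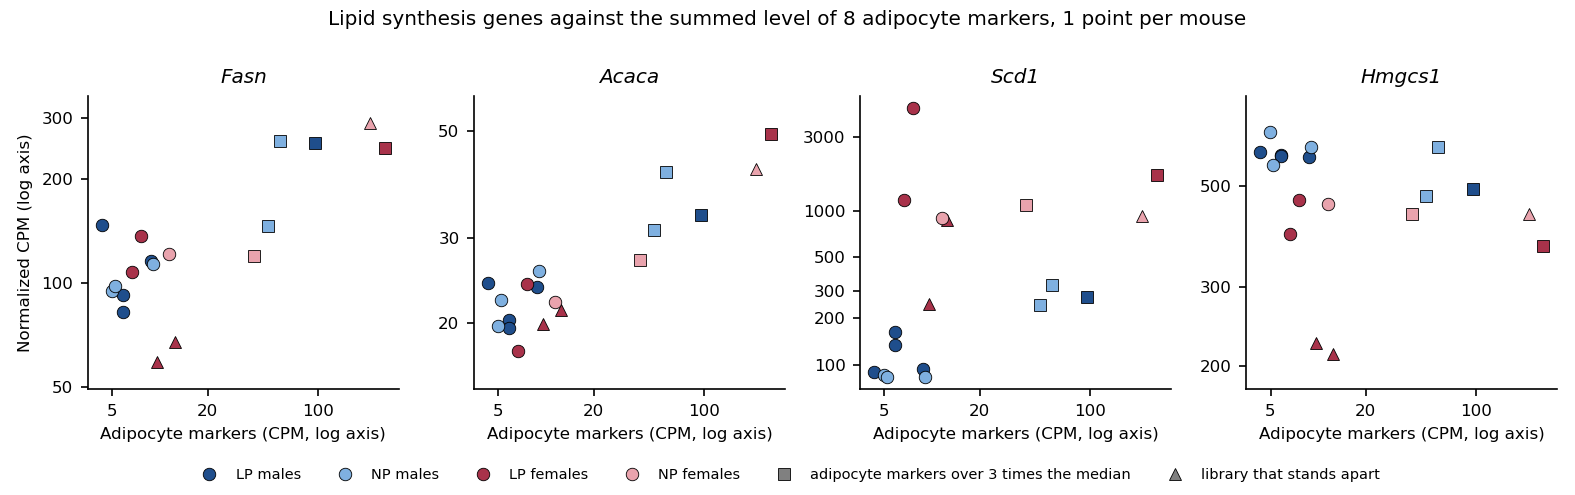
Normalized CPM of *Fasn*, *Acaca*, *Scd1*, and *Hmgcs1* (log axis) against the summed CPM of 8 adipocyte markers (log axis) in 18 libraries, colored by group; squares mark the libraries over 3 times the median of the markers and triangles the libraries that stand apart, of which NP female 3 also has the markers. *Acaca* is higher in all 6 libraries to the right of 20 CPM (27.0 to 49.1 CPM) than in the 12 to the left, and *Hmgcs1* is not.

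Whether maternal diet changed these genes was compared within each sex. In males, 0 of the 31 genes had an adjusted p under 0.05 in edgeR, and DESeq2's Wald test also called 0; over all 13181 genes tested, edgeR called 0.0379%. At an unadjusted p under 0.05 there were 2 of 31, *Tm7sf2* and *Srebf2*, against 3.84% of all genes. *Tm7sf2*, a sterol reductase, was at 15.02, 14.7, 16.3, 13.9, and 18.3 CPM in LP males and at 13.8, 10.96, 11.3, 9.76, and 14.4 CPM in NP males, and the groups overlapped in LP male 4 and NP male 5. LP exceeded NP by 0.38 on the log2 scale (SE 0.13, adjusted p = 1.00 in edgeR), and an exact permutation test over the 10 males gave p = 0.01587. *Srebf2* was at 104, 87.7, 83.6, 112, and 105 CPM in LP males and at 78.3, 95.4, 81.4, 75.5, and 83.2 CPM in NP males (log2 fold change 0.25, SE 0.10, adjusted p = 1.00 in edgeR; exact permutation p = 0.04762). Neither difference passed the correction over all genes.

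The next smallest p-values in males were those of *Srebf1*, *Fdps*, *Elovl6*, and *Acly*. *Srebf1* was at 28.4, 36.9, 48.1, 44.0, and 38.1 CPM in LP males and at 47.0, 36.9, 53.4, 42.6, and 72.0 CPM in NP males (log2 fold change −0.36, SE 0.18, adjusted p = 1.00 in edgeR). *Fdps* was at 27.9, 31.7, 27.9, 22.9, and 22.8 CPM in LP males and at 22.6, 21.3, 27.2, 18.5, and 27.5 CPM in NP males (log2 fold change 0.18, SE 0.14, adjusted p = 1.00 in edgeR). *Acly* was at 148, 154, 171, 225, and 185 CPM in LP males and at 144, 167, 183, 173, and 136 CPM in NP males (log2 fold change 0.14, SE 0.13, adjusted p = 1.00 in edgeR), and the values of *Elovl6* are given above (log2 fold change 0.42, SE 0.31). All 31 genes overlapped between LP and NP males, where 0.668% of all genes did not. The nominal 95% interval for *Hmgcs1*, the best measured of the enzymes, was −0.23 to 0.15 on the log2 scale. That for *Scd1*, the least well measured, was −0.99 to 0.73. Such intervals, made with a normal multiplier, are narrower than the edgeR test allows. That of *Srebf1* in males, −0.72 to −0.0033, left out 0 at an unadjusted p of 0.0708 in edgeR. Somewhat larger differences than these limits therefore remain possible.

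In females, 0 of the 31 genes were called by edgeR, 0 by DESeq2, and 0 had an unadjusted p under 0.05, against 0% of the 13510 genes tested by adjusted p and 4.17% by unadjusted p. Without the 3 libraries that stand apart, which leaves 3 LP and 2 NP females, 6 of 31 had an unadjusted p under 0.05 (4.44% of all genes in that fit), all higher in LP: *Lpin1*, *Elovl6*, *Sqle*, *Acly*, *Nsdhl*, and *Scd1*, with log2 fold changes of 1.14, 0.56, 0.73, 0.55, 0.44, and 1.349. None was called in that fit, where edgeR gave each an adjusted p of 0.972. *Sqle* was at 31.7, 27.5, 68.6, 57.7, and 79.4 CPM in LP females and at 39.7, 43.4, and 18.4 CPM in NP females (log2 fold change 0.65, SE 0.42, adjusted p = 0.886 in edgeR). *Hmgcs1* was at 225, 213, 392, 467, and 368 CPM in LP females and at 458, 434, and 434 CPM in NP females (log2 fold change −0.40, SE 0.27, adjusted p = 0.886 in edgeR). In both genes the 2 lowest LP females were LP females 1 and 2, which stand apart. Without the 3 libraries that stand apart, *Hmgcs1* gave −0.12 (SE 0.17). *Acly* was at 109, 139, 204, 217, and 201 CPM in LP females and at 122, 164, and 109 CPM in NP females (log2 fold change 0.41, SE 0.26, adjusted p = 0.886 in edgeR). *Mvd* was at 45.1, 44.3, 30.9, 43.0, and 34.2 CPM in LP females and at 46.7, 35.0, and 65.2 CPM in NP females (log2 fold change −0.30, SE 0.20, adjusted p = 0.886 in edgeR), and *Nsdhl* at 55.9, 66.1, 87.0, 101, and 84.4 CPM in LP females and at 61.8, 73.1, and 58.1 CPM in NP females (log2 fold change 0.30, SE 0.21, adjusted p = 0.886 in edgeR).

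*Lpin1* was at 49.1, 50.7, 238, 214, and 276 CPM in LP females and at 121, 100, and 58.1 CPM in NP females, and the 3 lowest values were those of the libraries that stand apart. LP exceeded NP by 0.84 on the log2 scale (SE 0.62), and edgeR gave an adjusted p of 0.886. Over the alternatives run the value went from −0.19 with the replicate number as a block to 1.14 (SE 0.18) without the libraries that stand apart, and it was 0.19 (SE 0.96) without those with adipocyte markers; *Lpin1* was called in none. All 31 genes overlapped between LP and NP females, where 2.98% of all genes did not. With these group sizes the nominal 95% intervals were wide, from −0.40 to 0.12 for *Fdft1* to −0.59 to 2.27 for *Scd1* on the log2 scale. They too were made with a normal multiplier and are too narrow. For *Scd1* a difference of several fold was thus not detectable.

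The median log2 fold change of LP over NP was 0.05 in males (all genes tested −0.00) and 0.00 in females (all genes −0.01). An interaction term over all 18 libraries asked if LP and NP differed unequally in females and males. By edgeR 0 of the 31 genes were called, against 0.0158% of 12665 genes, DESeq2 called 0, and 1, *Tm7sf2*, had an unadjusted p under 0.05 (log2 difference −0.59, SE 0.22, adjusted p = 0.977 in edgeR), against 4.02% of all genes. *Tm7sf2* was at 13.2, 14.8, 12.7, 17.5, and 14.2 CPM in LP females and at 14.6, 14.8, and 21.0 CPM in NP females. Without the 3 libraries that stand apart, its log2 difference was −0.37 (SE 0.23, unadjusted p = 0.13 in edgeR). The next 5 by p were *Hmgcs1* (log2 difference −0.37, SE 0.26), *Cyp51* (−0.42, SE 0.31), *Sqle* (0.59, SE 0.47), *Srebf2* (−0.24, SE 0.19), and *Mvk* (−0.34, SE 0.28), each with an adjusted p of 0.977 in edgeR. *Cyp51* was at 158, 396, 355, 387, and 320 CPM in LP females and at 433, 281, and 467 CPM in NP females.

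**Figure D4:**
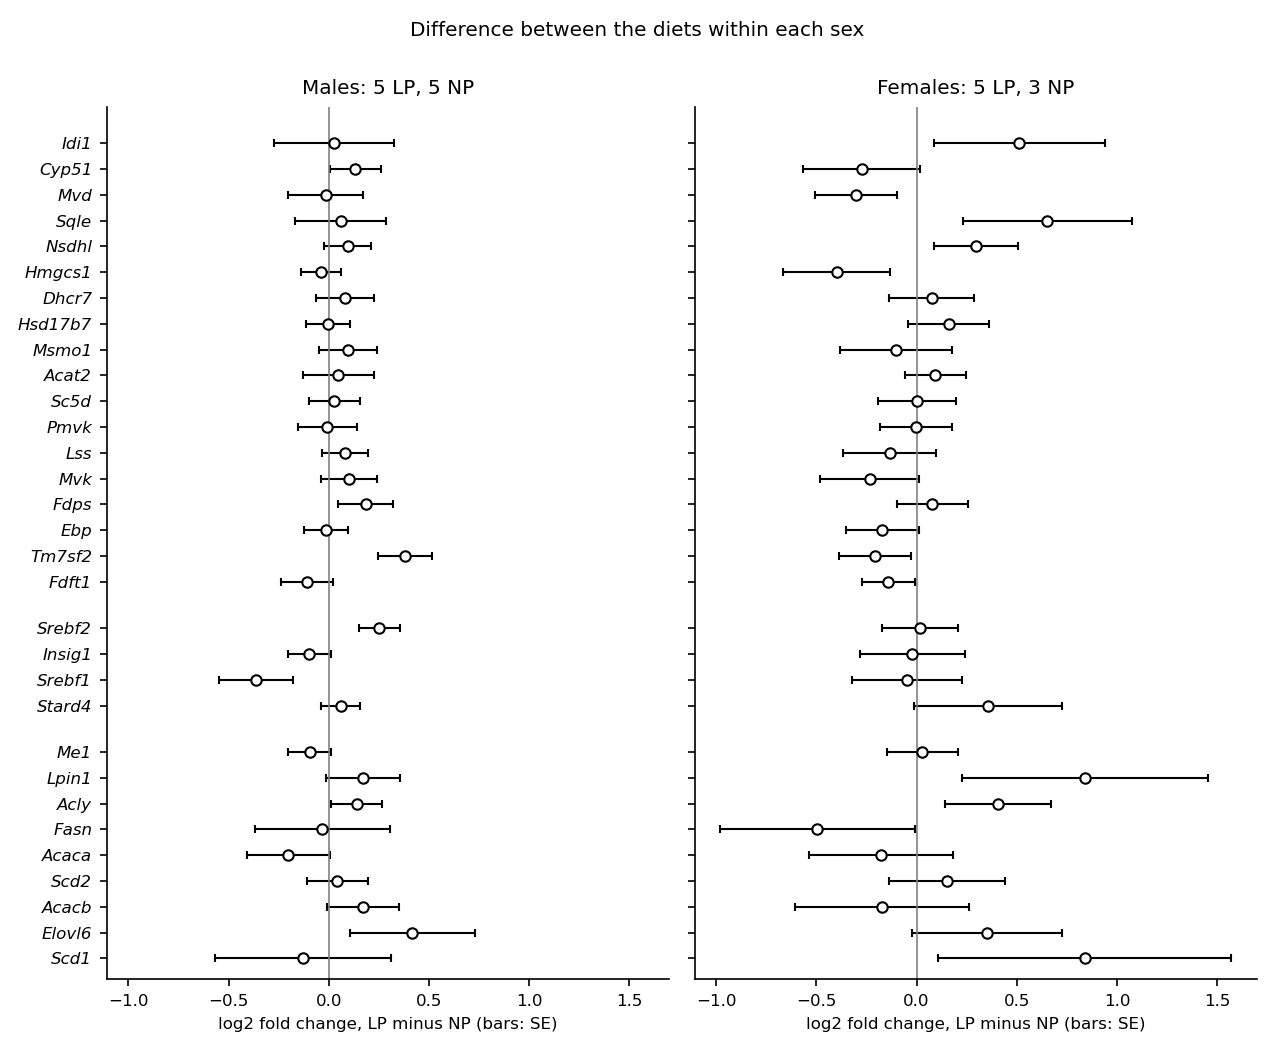
Log2 fold change of LP over NP for the 31 genes in males (left, 5 LP and 5 NP) and females (right, 5 LP and 3 NP), with bars of 1 SE, in the order of the plot of sex differences; none of the 31 was called in either sex. Bars are wider in females, up to 0.73 for *Scd1* against 0.44 in males, and *Tm7sf2* in males lies farthest from 0 for its bar.

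Across libraries the genes of each branch varied together to different degrees. After group means were removed, the median Pearson correlation over pairs was 0.19 among the 18 cholesterol enzymes (105 of 153 pairs positive) and 0.46 among the 9 fatty acid genes (30 of 36 pairs positive), against −0.00 over all gene pairs, with 18 libraries. The points of such a correlation share library, depth, and fat content. Without the libraries that stand apart (15 libraries) the medians were 0.33 and 0.31, and without those with adipocyte markers (11 libraries, leaving out the lone NP female) 0.21 and 0.66, so the order of the branches changed with the libraries used.

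Other genes of the same pathways were read against the 31. Of 15 further genes of sterol synthesis and SREBP control, 6 were higher in males and 1 was lower, where 18.9% of all genes were higher in males and 19.8% higher in females. Among those higher were *Aacs*, which makes acetoacetyl-CoA from acetoacetate (2.30 times as high), *Lbr*, a sterol reductase (1.53 times), *Scap*, the escort of the SREBPs (1.44 times), *Mbtps2*, the protease that releases them (1.36 times), and *Erg28*, a scaffold of sterol enzymes (1.21 times). Of 15 further fatty acid genes tested, out of 17 listed, 7 were higher in males and 2 in females, against the same shares of all genes. *Acss2*, which makes acetyl-CoA from acetate, was 1.51 times as high in males, *Elovl5*, the elongase of polyunsaturated fatty acids, was 1.69 times as high in females, and *Acsl1*, which activates fatty acids, was 2.14 times as high in females, each with an adjusted p under 0.05 in edgeR. By diet, 0 of these genes were called in either sex.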

How the data were processed

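Kidney RNA from 18 mice was sequenced as poly(A), non-directional libraries, 1 per mouse. The authors aligned reads with STAR to GRCm39 with GENCODE vM36 and deposited raw read counts per gene for each library. Reads that map to several places or fall on more than 1 gene are counted for no gene. With unmapped reads and reads outside genes included, 28.6% to 36.1% of reads per library were not counted. Reads on more than 1 gene made up 6.58% to 7.38%. Counts ranged from 14050486 to 23562411 per library, and genes with few counts are measured with less precision. Gene names came from GENCODE vM39, which named 78168 of 78239 IDs.

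The counts were tested as deposited with edgeR 4.0.16 in R 4.3.3 (TMM, quasi-likelihood, Benjamini-Hochberg over all genes tested), on genes that reached 10 counts in each library compared, following the study's minimum of 10 reads. A gene was called at an adjusted p under 0.05. LP and NP were compared within each sex. The interaction and the difference between the sexes (mean of both diets) were fitted over the 4 groups. Single genes were tested by exact two-sided permutation. DESeq2 1.42.0, other filters and scalings, a replicate block, and fits without single or doubted libraries were alternatives. Scripts were tested on simulated data.

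The 31 genes and all other lists were chosen with earlier results of these data known. Genes named with values per library or per sex were those called in a comparison, or, where none was called, the 6 with the smallest unadjusted p; other genes were named from the lists by role. Promoter windows came from RefSeq for 25 of 31 genes. P-values measure the spread between mice, and litters were not given in the sources used here.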

Additional observations from a re-analysis of the deposited data

Results flagged for a closer look

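Of 93 pairs of gene and group with at least 4 mice, 3 had a library far from the rest by Dixon's ratio at the 95% level, where chance gives about 1 in 20. *Hmgcs1* was 494.6 CPM in LP male 4, with the nearest LP male at 580.0 CPM. *Cyp51* was 157.6 CPM in LP female 1, with the nearest LP female at 320.1 CPM. *Hsd17b7* was 28.79 CPM in LP female 1, with the nearest LP female at 36.92 CPM. LP male 4 is a library with adipocyte markers, and LP female 1 is among the 3 that stand apart; the part of either in these values was not tested.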

How the results depend on the processing

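By diet and in the interaction, 0 of the 31 genes were called under every alternative run. Between the sexes 16 were called, and 15 to 17 with other filters, scalings, or DESeq2. In the main fit 38.7% of all genes were called, and the shares in the alternatives, apart from those within each diet, are not given here. Without the libraries with adipocyte markers 10 were called, and in NP mice alone 8, both with fewer mice; in NP mice alone 7 of the 8 were among the 16. Leaving out 1 library gave 14 to 19. *Sqle* was then called in 10 of 18 fits, *Srebf1* in 9, *Acacb* in 16, and the other 13 genes in all 18. Without both sets of doubted libraries, an alternative chosen after seeing the data that leaves 1 NP female, taken to vary like the other groups, 12 were called, and *Scd2* (0.049), *Stard4* (0.11), and *Srebf1* (0.052) changed direction on the log2 scale without being called. The value for Mvk, interaction of diet and sex, which was not called, turned to 0.18 without the adipocyte libraries and ranged from −0.50 to 0.00831 when 1 library was left out, the latter without NP female 3. With the replicate number as a block, 14 genes were called between the sexes, 13 of them among the 16, and *Lpin1* in females turned to −0.19. Correlations of same-numbered libraries ran from −0.61 to 0.48. Such correlations cannot exclude a pairing by litter, which was not given, and the main fits were unpaired. The cause of these changes was not tested. Without the adipocyte libraries 5 of the 31 genes in males had an unadjusted p under 0.05 (3.99% of all genes), and 5 in females (6.3%), where 1 NP female is left and taken to vary like the LP females; the adjusted calls stayed at 0. Group sizes, with 3 NP females, and the spread of *Scd1* limit what the diet comparisons can show.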

Other observations

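Genes of sterol sensing and efflux were read between the sexes. Of 14 genes listed, which respond to LXR or move cholesterol out of cells and lysosomes, 11 were tested, 4 were higher in males, and 2 were higher in females (adjusted p under 0.05 in edgeR), where 18.9% of all genes were higher in males and 19.8% higher in females. *Apoe*, a carrier of cholesterol between cells, ran from 35.1 to 79.7 CPM in males and from 115 to 418 CPM in females, without overlap (log2 fold change −1.99, SE 0.27). *Npc1*, which moves cholesterol out of lysosomes, ran from 21.8 to 42.6 CPM in males and from 11.7 to 21.4 CPM in females, also without overlap (log2 fold change 0.99, SE 0.12). *Smpdl3a*, a phosphodiesterase, *Nr1h3*, which encodes LXR alpha, and *Lpcat3*, which remodels phospholipids, were 1.88, 1.42, and 1.32 times as high in males, and *Mylip*, a ubiquitin ligase for lipoprotein receptors, was 1.41 times as high in females. By diet, 0 of the 11 were called in either sex.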
